A study of Citrus junos with 4 samples.

Results

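The 133 genes described here are those of the deposited table whose description holds the words bHLH or basic helix-loop-helix, out of 29406 genes in all. They were chosen by these words alone and not by their expression. The samples were mature leaves of Ziyang xiangcheng (Citrus junos), a citrus rootstock, from its doubled diploid (4×) and its diploid (2×), with no treatment. The leaves stood near the top of the plant and were 3 to 5 months old, and each library was made from leaves pooled from 4 plants. There were 2 libraries of 4× (4×-1 and 4×-2) and 2 of 2× (2×-1 and 2×-2), made from separate pools. The p-values rest on the spread between 2 pools per group, combined with the spread of other genes of similar level. Values are RPKM, the reads of a gene scaled to its length and to the reads of the library. RPKM is relative to the reads of a library and says nothing of the RNA per cell, and in whole leaves fewer cells of a type and less RNA per cell cannot be told apart.

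Basic helix-loop-helix (bHLH) proteins are transcription factors that bind DNA as pairs. The basic stretch contacts short E-box elements in promoters, and the helix-loop-helix stretch joins the partners, so what a member does depends on the partner it meets. In plants they act in jasmonate and light signalling, in the steps that make a stoma, in iron supply, in trichomes and flavonoids, and in flowers and fruits. The roles given below were worked out in Arabidopsis, and the citrus genes carry them only through the database matches in their descriptions.

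Each description lists several database matches. A member was placed by the first factor name in it that stood on a fixed list, called here its first named factor. The name ABA-INDUCIBLE bHLH-TYPE stood in 35 descriptions but was not on that list, so it placed no member. The sizes of the groups below, and which of them hold calls, depend on the list. A first named factor was found for 124 of the 133 members, with 84 different names, of which 28 led 2 or more members. The place of a word matters. The words FER-LIKE IRON DEFICIENCY stood somewhere in the descriptions of 22 members but led 2, and SPATULA or its relative ALCATRAZ stood in over 40 descriptions each but led at most 1. Among the members, 9 were led by TCP or bZIP factors, which belong to other families of transcription factor and carry the bHLH words through one of their matches.

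The libraries held 9363285 (4×-1), 8874306 (4×-2), 9324856 (2×-1) and 9545185 (2×-2) reads behind the RPKM values. The guard cell list held 6 genes, of which 2 averaged 1 RPKM or more. Its summed values overlapped between the groups (5.71 and 7.60 RPKM in 4×, against 5.96 and 7.17 RPKM in 2×). So low a sum is no measure of guard cell content. The mesophyll list, made of Rubisco small chain and chlorophyll-binding genes, summed to 17810 and 18049 RPKM in 4×, against 15111 and 18491 RPKM in 2×, so that 2×-1 was the lowest library. Its part in the results below was not tested.

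The bHLH-described genes covered a wide range of levels in these leaves. No read was found in any library for 21 members, and 41 more had a mean below 1 RPKM, 23 of them with 3 reads or fewer over all 4 libraries. The other 71 members, 53.4% of the 133, averaged 1 RPKM or more across the libraries and were tested. The same held for 54.9% of all genes. A mean over 60 RPKM was reached by 4 members, 3.01%, and by 7.28% of all genes. The members just under the limit were Cs5g01710, Cs7g12800 and Cs8g04720 with means of 0.659, 0.669 and 0.705 RPKM, and those just above it were Cs3g16770, Cs3g23320 and Cs7g19870 with 1.05, 1.08 and 1.10 RPKM.

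**Figure D1:**
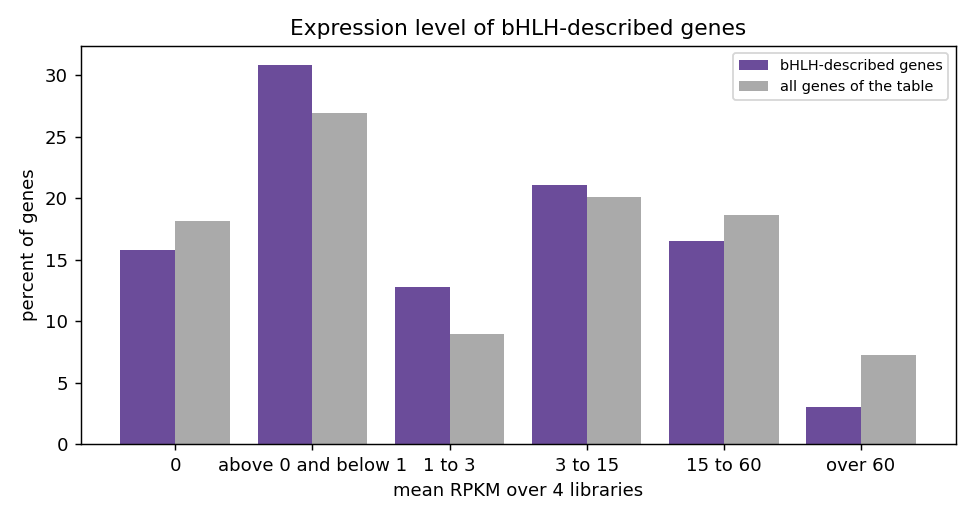
Share of bHLH-described genes (purple) and of all genes of the table (grey), in percent, by class of mean RPKM over the 4 libraries. Members at 0 make up 15.8% and all genes at 0 make up 18.1%, and the class over 60 RPKM holds 3.01% of the members and 7.28% of all genes.

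The strongest signal came from Cs2g23280, whose description names the family but no factor of the fixed list. It measured 112 and 88.1 RPKM in 4×, against 166 and 105.1 RPKM in 2×. The groups overlapped, and 2×-1 stood above the other 3 libraries. Without 2×-1 its log2 fold change was -0.08, and with all libraries -0.41 (limma, adjusted p = 0.425). The next members by level did not pass the test either. Cs2g03700, led by bHLH144, measured 87.6 and 92.7 RPKM in 4×, against 90.5 and 93.0 RPKM in 2×. Cs4g01460, led by bHLH66, a LRL factor of root hair growth, measured 71.1 and 80.5 RPKM in 4×, against 87.4 and 76.1 RPKM in 2×, and both of these genes had overlapping groups. Cs3g22920, led by bHLH80, one of the FLOWERING BHLH factors that act on the flowering gene CONSTANS, measured 80.0 and 78.1 RPKM in 4×, against 72.1 and 74.7 RPKM in 2×, without overlap and with an adjusted p of 0.733 in limma. The next, orange1.1t04234, led by bHLH143, measured 51.2 and 50.1 RPKM in 4×, against 48.5 and 47.2 RPKM in 2×. bHLH143, bHLH144 and bHLH145 are relatives of SAC51, a factor of the thermospermine response in stem growth, and the 3 members of this kind had log2 fold changes between -0.03 and 0.08. These 5 most abundant members made up 32.6% and 31.3% of the summed member RPKM in 4×, against 34.9% and 32.4% in 2×.

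To ask which bHLH-described genes changed with ploidy, log2(RPKM + 0.5) was compared between 4× and 2× with limma over all 16157 genes that passed the limit of 1 RPKM, with Benjamini-Hochberg adjustment over all of them. A log2 fold change is 4× minus 2×, on this scale, and understates the change of low genes. Of the 71 tested members, 2 passed an adjusted p of 0.05, beside 1.39% of all tested genes. Both were lower in 4×, beside 0.99% of all tested genes lower in 4×. An unadjusted p below 0.05 was seen for 14 members, 7 higher and 7 lower in 4×, beside 13.3% of all tested genes. The median log2 fold change of the tested members was -0.01, and that of all tested genes -0.03. Both 4× libraries lay above both 2× libraries for 20 members, or 28.2%, beside 17.5% of all tested genes. They lay below both for 15 members, or 21.1%, beside 26.2% of all tested genes. A second fit, limma voom on the whole reads recovered from the RPKM values, called the same 2 members, beside 2.5% of all tested genes.

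**Figure D2:**
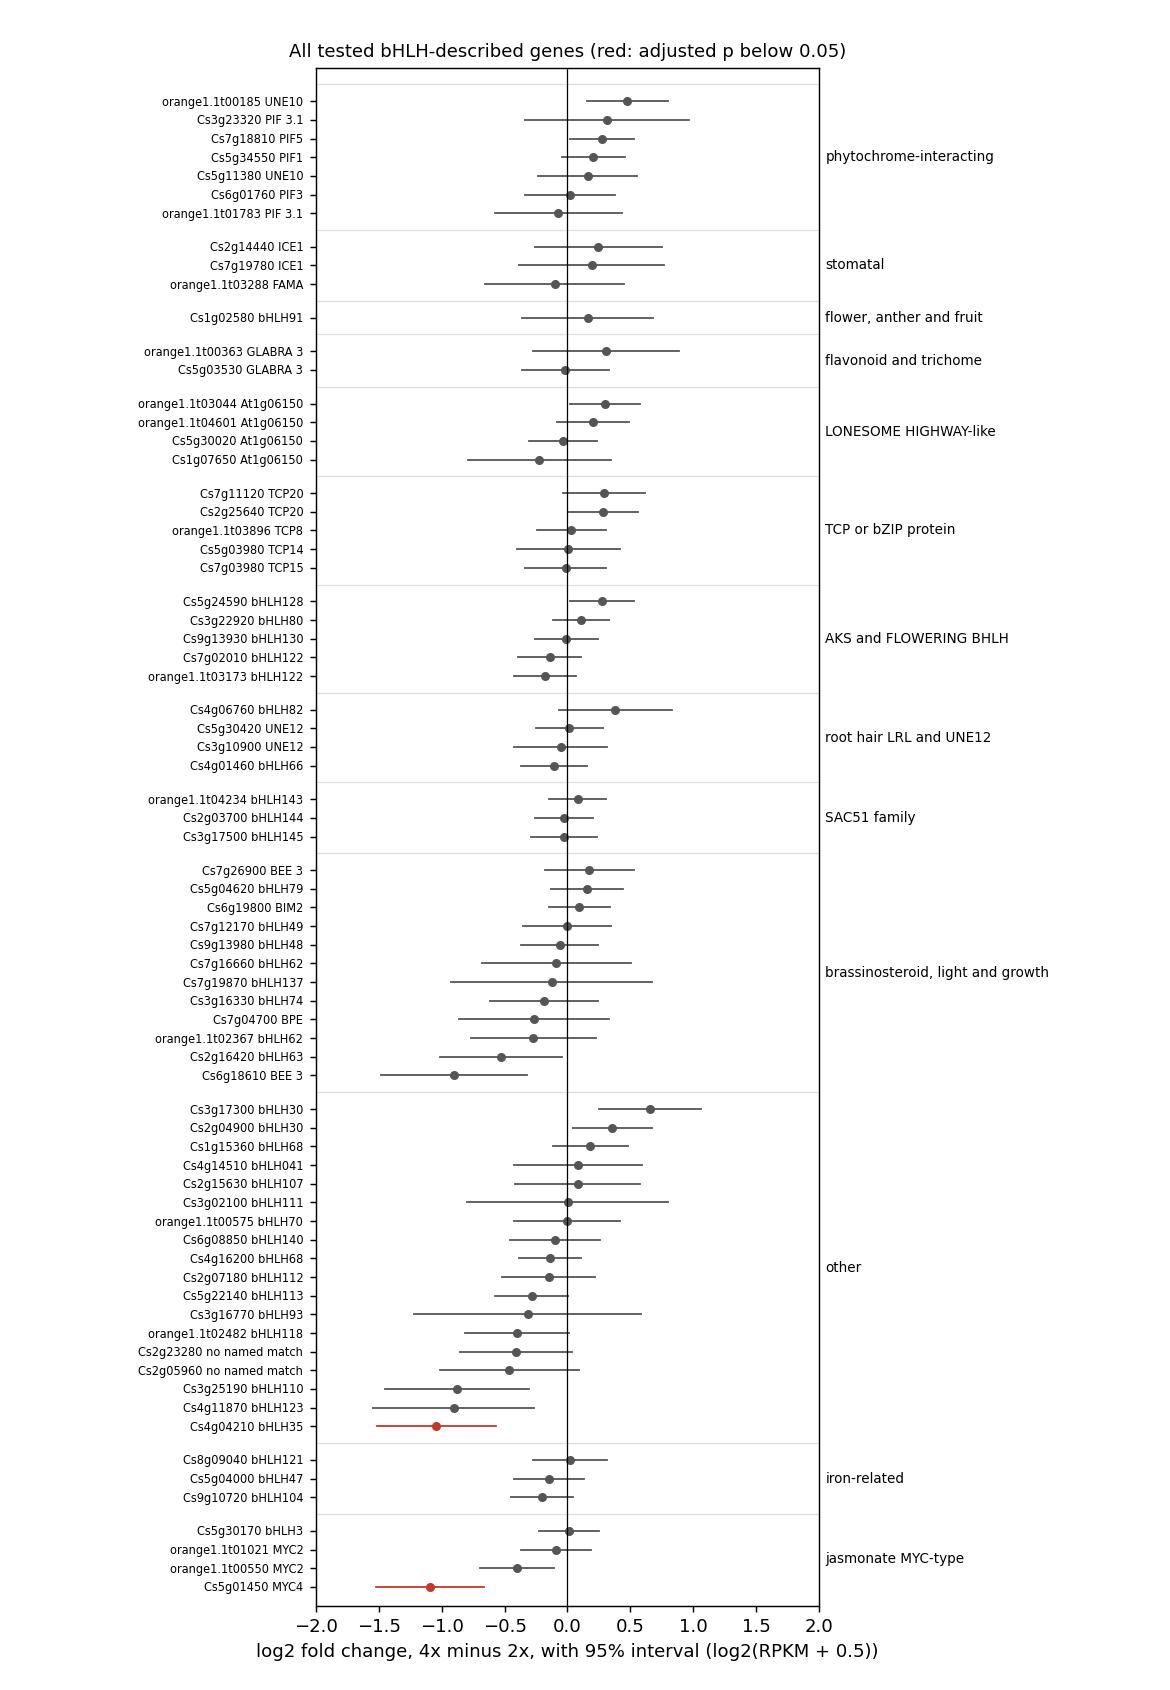
Log2 fold change, 4× minus 2×, of the 71 tested members with 95% intervals, grouped by the first named factor of the description (AKS, abscisic acid-responsive kinase substrate). The 2 genes called by limma, both below 0, are in red, and the values of the 71 genes run between -1.09 and 0.66.

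The members were followed gene by gene in 4 groups, starting with the jasmonate MYC-type genes. MYC2 and its close relatives are the factors that JAZ repressors hold in check until jasmonate arrives, and bHLH3 (JAM3) works against them at the same promoters. All 4 members of the group were tested, and 1 passed, lower in 4×, beside 0.99% of all tested genes. Cs5g01450, led by MYC4, measured 3.76 and 3.13 RPKM in 4×, against 8.99 and 6.92 RPKM in 2×. Both 4× pools lay under both 2× pools, with 81 and 64 reads against 193 and 152 reads. It fell by 1.09 on the log2 scale with an SE of 0.19 (adjusted p = 0.033 in limma). The ratio of summed reads, 4× over 2×, was 0.435 (exact 95% interval 0.356 to 0.529, counting error only). The adjusted p was 0.0146 without 4×-1, 0.0608 without 4×-2, 0.160 without 2×-1 and 0.0722 without 2×-2, so the call was lost without any 1 of the last 3 libraries, and 0.271 with no limit on low values.

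The other jasmonate MYC-type genes were more abundant and did not pass the test. orange1.1t00550, led by MYC2, measured 15.4 and 14.2 RPKM in 4×, against 21.6 and 18.1 RPKM in 2×. Its groups did not overlap, and the log2 fold change was -0.40 (95% interval -0.70 to -0.11, limma adjusted p = 0.196). The second gene led by MYC2, orange1.1t01021, measured 28.8 and 31.3 RPKM in 4×, against 35.3 and 29.1 RPKM in 2×. Its groups overlapped, with an interval of -0.37 to 0.19. Cs5g30170, led by bHLH3, measured 34.2 and 33.2 RPKM in 4×, against 34.8 and 32.1 RPKM in 2×, with an interval of -0.23 to 0.25.

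The JAZ repressors that bind these factors are listed in the table among the TIFY proteins, and none of the TIFY genes is bHLH-described. TIFY is the wider name, and genes described as TIFY 8 (Cs4g20330) or TIFY 4B (Cs5g30760 and Cs9g07620) are not JAZ repressors. Their log2 fold changes were -0.15, -0.16 and 0.20. All 10 TIFY genes were tested. Of these, 4 passed the test as lower in 4×, beside 0.99% of all tested genes, and 0 passed as higher. The median log2 fold change of the 10 was -0.58, beside -0.03 over all tested genes. The called genes were Cs1g17220, Cs2g03240, Cs4g07130 and Cs7g02820. Cs4g07130, described as TIFY 10B, measured 56.3 and 42.8 RPKM in 4×, against 106 and 81.0 RPKM in 2×, which is -0.91 on the log2 scale with an SE of 0.16 (adjusted p = 0.0345 in limma). The most abundant of the 10, Cs2g17230 (TIFY 6B), did not pass. It measured 240 and 228 RPKM in 4×, against 236 and 206 RPKM in 2× (log2 fold change 0.09, limma adjusted p = 0.841). The coronatine-insensitive gene Cs7g31600, named for the jasmonate receptor, measured 36.3 and 44.6 RPKM in 4×, against 38.5 and 36.5 RPKM in 2×, and the groups overlapped.

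**Figure D3:**
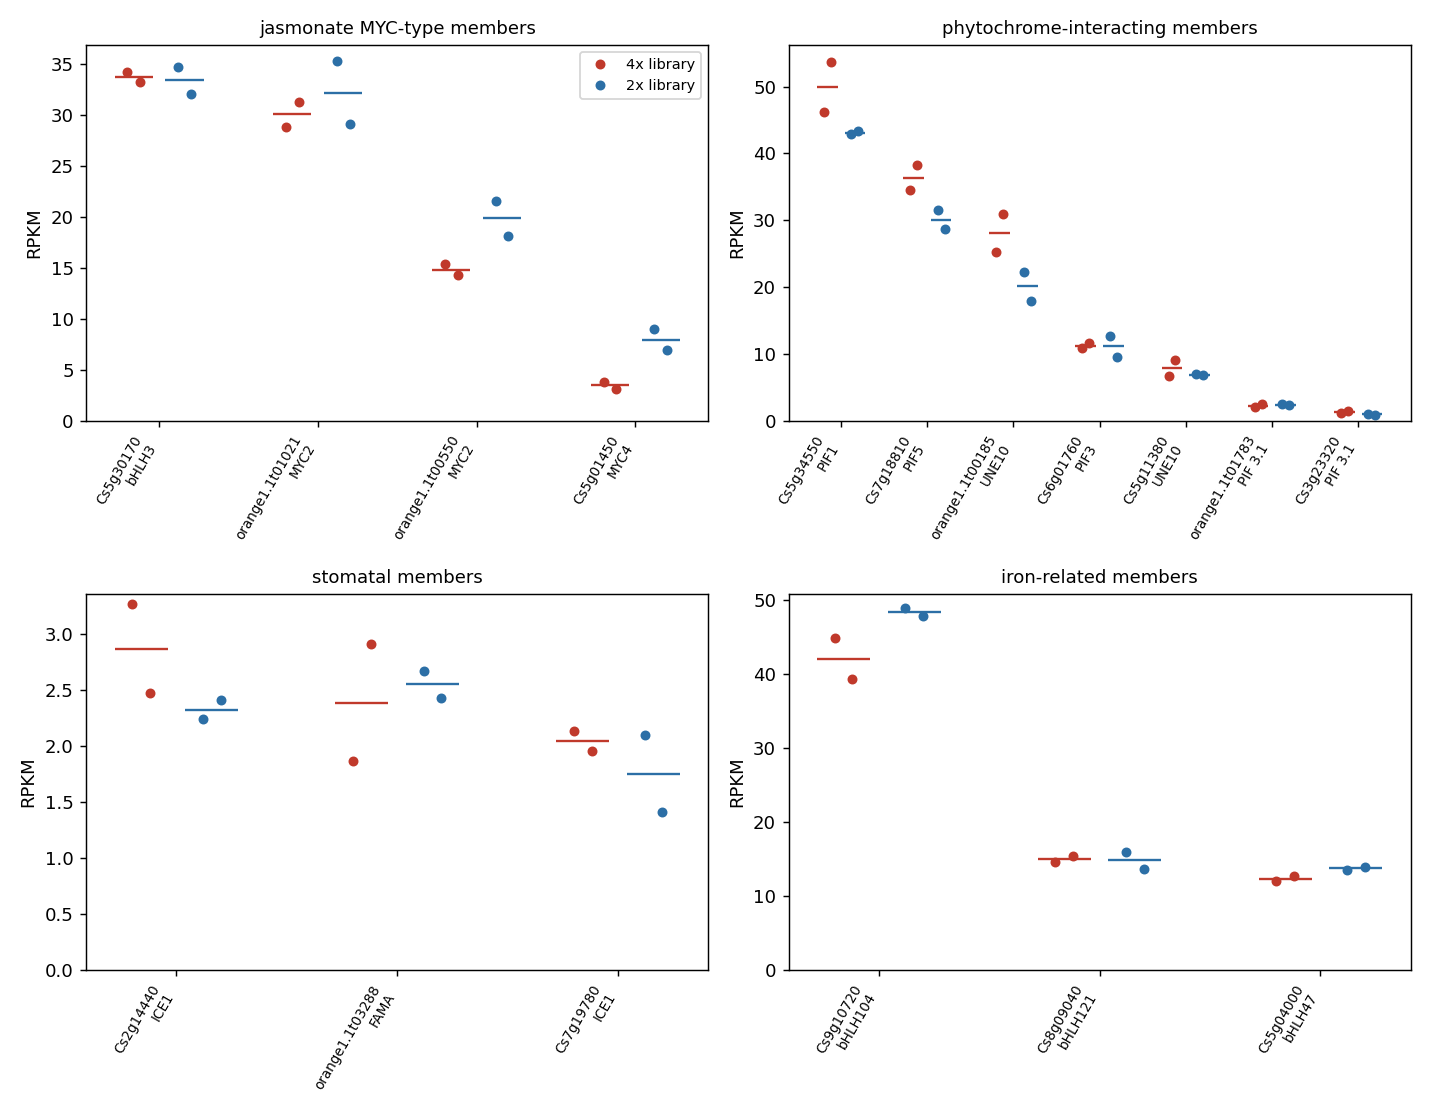
RPKM of the tested jasmonate MYC-type, phytochrome-interacting, stomatal and iron-related members, by library. Each point is 1 library (red 4×, blue 2×) and each short line a group mean. Cs5g01450 lies at 3.76 and 3.13 RPKM in 4×, under 8.99 and 6.92 RPKM in 2×, and the stomatal members all lie under 3.5 RPKM.

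Phytochrome-interacting factors are bHLH proteins that active phytochrome binds and marks for destruction in the light, and they promote the growth seen in darkness and shade. The group held 8 members, 7 led by names of this kind and Cs1g22470, led by the related fruit factor ALCATRAZ, which had a mean of 0.152 RPKM and was not tested. The other 7 were all tested and 0 passed. Of these, 6 had a positive log2 fold change, as had 7170 of the 16157 tested genes, and their median was 0.20. Both 4× libraries lay above both 2× libraries in 4 of the 7, beside 17.5% of all tested genes, and below both in 0, beside 26.2%. orange1.1t00185, led by UNE10 (PIF8), measured 25.3 and 30.9 RPKM in 4×, against 22.2 and 17.9 RPKM in 2×. Both 4× pools lay above both 2× pools, with a log2 fold change of 0.48 (95% interval 0.15 to 0.80, limma adjusted p = 0.166). Cs7g18810, led by PIF5, measured 34.5 and 38.3 RPKM in 4×, against 31.4 and 28.6 RPKM in 2×, a log2 fold change of 0.27 (limma adjusted p = 0.336). Cs5g34550, led by PIF1, which holds back seed germination in the dark, measured 46.1 and 53.6 RPKM in 4×, against 42.9 and 43.3 RPKM in 2× (limma adjusted p = 0.490). These 2 also did not overlap between the groups.

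The remaining phytochrome-interacting genes were lower in level. Cs6g01760, led by PIF3, measured 10.8 and 11.6 RPKM in 4×, against 12.7 and 9.58 RPKM in 2×. The second gene led by UNE10, Cs5g11380, measured 6.62 and 9.01 RPKM in 4×, against 6.90 and 6.82 RPKM in 2×, and both genes overlapped between the groups. The 2 genes led by Phytochrome-interacting factor 3.1 differed in level. orange1.1t01783 measured 2.03 and 2.40 RPKM in 4×, against 2.44 and 2.26 RPKM in 2×, with overlap. Cs3g23320, the weakest, measured 1.07 and 1.45 RPKM in 4×, against 0.919 and 0.897 RPKM in 2×, from 12 to 18 reads a library, without overlap (95% interval -0.34 to 0.96). Of 13 genes with phytochrome, cryptochrome or HY5 among their matches, all 13 were tested and 0 passed in either direction. It is a broad list and not all of its genes are photoreceptors. The description of Cs5g33120 opens with a beta-glucosidase name and that of Cs9g14210 with a photolyase name.

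In stomatal development SPEECHLESS starts the lineage, MUTE ends its divisions and FAMA makes the guard cells, each paired with ICE1 or SCREAM, and ICE1 also acts in the cold response. These leaves were mature. The members led by SPEECHLESS and MUTE, Cs9g18490 and Cs9g06130, were listed at 0 in all 4 libraries. The other 3 stomatal members were tested at low levels, and 0 passed. The FAMA-led gene orange1.1t03288 measured 1.87 and 2.90 RPKM in 4×, against 2.67 and 2.42 RPKM in 2×. Both 2× pools lay between the 4× pools, and the interval ran between -0.66 and 0.45. Cs2g14440, led by ICE1, measured 3.26 and 2.47 RPKM in 4×, against 2.23 and 2.41 RPKM in 2×, without overlap (95% interval -0.26 to 0.75). Cs7g19780, also led by ICE1, measured 2.13 and 1.96 RPKM in 4×, against 2.09 and 1.41 RPKM in 2×, with overlap (95% interval -0.38 to 0.77). The list of other stomatal signalling genes held 467 genes, of which 190 were tested. Of these, 2 passed as lower in 4× (Cs8g05230 and orange1.1t05075), beside 0.99% of all tested genes, and 0 passed as higher. It is a broad list, since 448 of its genes carry the word ERECTA, a receptor kinase name, among their matches, both called genes included. Of its 9 genes described as epidermal patterning factors or factor-like proteins, a family of secreted peptides of which some space the stomata, 1 was tested and 0 passed. The tested gene, Cs1g18020, is described as EPIDERMAL PATTERNING FACTOR-like protein 3.

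The iron-related members belong to the cascade in which bHLH104 and bHLH121 act above POPEYE (bHLH47) and above FIT, the root regulator of iron uptake. Of 6 members placed here by their first named factor, 3 were tested and 0 passed. Counting the words FER-LIKE IRON DEFICIENCY anywhere in a description gave 13 tested members. Of these, 2 passed (Cs5g01450 and Cs4g04210), beside 1.39% of all tested genes. Cs9g10720, led by bHLH104, measured 44.8 and 39.3 RPKM in 4×, against 49.0 and 47.9 RPKM in 2×. Cs5g04000, led by bHLH47, measured 11.97 and 12.7 RPKM in 4×, against 13.5 and 13.9 RPKM in 2×. Both genes had non-overlapping groups with the 4× pools lower, as had 26.2% of all tested genes, and limma gave adjusted p-values of 0.482 and 0.691. Cs8g09040, led by bHLH121, measured 14.6 and 15.4 RPKM in 4×, against 15.9 and 13.6 RPKM in 2×, with overlap. The 2 members led by the FIT match and the one led by bHLH101 were at or near 0. Of 37 other genes described as iron uptake or storage genes, 21 were tested and 0 passed in either direction.

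Outside these groups, as drawn by the first named factor, 1 member passed the test, lower in 4×, beside 0.99% of all tested genes. Cs4g04210, led by bHLH35, measured 2.13 and 2.38 RPKM in 4×, against 5.99 and 4.46 RPKM in 2×. Both 4× pools lay below both 2× pools, with 81 and 86 reads against 227 and 173 reads. It fell by 1.04 on the log2 scale with an SE of 0.21 (adjusted p = 0.0493 in limma). The ratio of summed reads was 0.432 (exact 95% interval 0.358 to 0.519, counting error only). The adjusted p was 0.0767 without 4×-1, 0.0656 without 4×-2, 0.272 without 2×-1 and 0.10 without 2×-2, so the call was lost without any 1 library. It was also lost under median-of-ratios scaling (0.0542), at a pseudocount of 0.1 (0.0513) and with no limit on low values (0.282). The descriptions of Cs4g04210 and Cs5g01450 both held the words ABA-INDUCIBLE bHLH-TYPE, FER-LIKE IRON DEFICIENCY, GLABRA 3 and ABORTED MICROSPORES, which led neither.

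The largest differences among the members whose groups did not overlap included 3 more lower genes, none of which passed. Cs4g11870, led by bHLH123, measured 1.14 and 2.22 RPKM in 4×, against 2.98 and 3.99 RPKM in 2× (log2 fold change -0.90, limma adjusted p = 0.181). Cs6g18610, led by BEE 3, a brassinosteroid-induced growth factor, measured 0.835 and 1.06 RPKM in 4×, against 2.26 and 2.13 RPKM in 2× (log2 fold change -0.90, limma adjusted p = 0.147). Cs3g25190, led by bHLH110, measured 1.45 and 2.58 RPKM in 4×, against 3.80 and 4.22 RPKM in 2× (log2 fold change -0.88, limma adjusted p = 0.148). All 3 were weak genes, with 10 to 89 reads a library. Without 4×-1 the log2 fold change was -0.54 for Cs4g11870 and -0.55 for Cs3g25190.

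On the higher side the largest value belonged to Cs3g17300, led by bHLH30, which measured 6.28 and 5.26 RPKM in 4×, against 3.40 and 3.52 RPKM in 2×. Its log2 fold change was 0.66 (95% interval 0.25 to 1.06, limma adjusted p = 0.130). The second bHLH30-led gene, Cs2g04900, measured 10.4 and 11.2 RPKM in 4×, against 8.77 and 7.91 RPKM in 2× (log2 fold change 0.36, limma adjusted p = 0.305). Cs4g06760, led by the LRL factor bHLH82, measured 3.94 and 4.93 RPKM in 4×, against 3.56 and 3.01 RPKM in 2× (log2 fold change 0.38, limma adjusted p = 0.472). Without 4×-2 the log2 fold change of Cs4g06760 was 0.23. None of these genes overlapped between the groups.

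**Figure D4:**
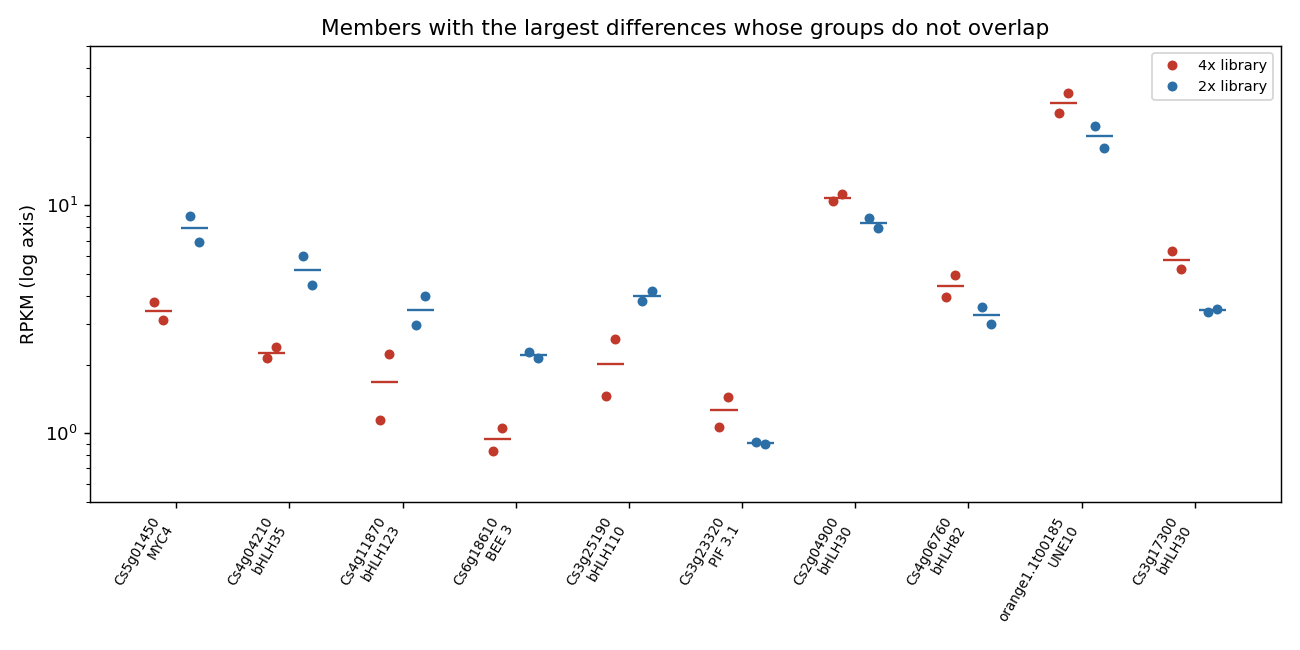
RPKM on a log axis of the 5 members with the largest negative and the 5 with the largest positive log2 fold change among those whose groups did not overlap. Points are libraries (red 4×, blue 2×) and short lines are group means. Only Cs5g01450 and Cs4g04210, at the left, passed the test.

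Members that share a first named factor often differed in level. The 2 genes led by BEE 3 lay 4.03-fold apart in mean RPKM. Cs7g26900, the stronger, measured 7.13 and 6.34 RPKM in 4×, against 5.94 and 5.90 RPKM in 2×, above 2× in both pools where Cs6g18610 lay below. The difference between these copies was not tested. The pair led by GLABRA 3, a trichome and flavonoid factor, lay 6.42-fold apart, and the pair led by UNE10 3.28-fold apart. The 2 genes led by bHLH122, a substrate of an abscisic acid-responsive kinase in guard cells, lay 1.20-fold apart. Both had the 4× pools below the 2× pools, as had 26.2% of all tested genes, at 24.1 to 31.3 RPKM in 4×, against 26.8 to 33.8 RPKM in 2×. Neither passed (limma adjusted p = 0.546 for orange1.1t03173 and 0.662 for Cs7g02010). All 4 genes led by bHLH25 and all 4 led by bHLH135 stayed below 0.3 RPKM in each library.

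The remaining groups held 0 calls. The brassinosteroid, light and growth members numbered 13, of which 12 were tested, with a median log2 fold change of -0.11. Among them Cs2g16420, led by bHLH63 (CIB1, a partner of cryptochrome), measured 2.43 and 2.57 RPKM in 4×, against 3.27 and 4.47 RPKM in 2× (limma adjusted p = 0.326). Of 7 genes led by LONESOME HIGHWAY-like matches, a kind of factor of vascular development, 4 were tested, with a median of 0.08. Of the flower, anther and fruit members 1 of 8 was tested, and of the RSL root hair members 0 of 3.

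Within the members matched to abscisic acid-responsive kinase substrates and FLOWERING BHLH factors, all 5 were tested, and log2 fold changes ran between -0.18 and 0.27. Cs5g24590, led by bHLH128, measured 32.5 and 29.8 RPKM in 4×, against 24.8 and 26.6 RPKM in 2× (limma adjusted p = 0.323). It was the highest of these 5 differences, and its groups did not overlap. Cs9g13930, led by bHLH130, measured 20.6 and 20.1 RPKM in 4×, against 20.8 and 20.2 RPKM in 2×, with an interval of -0.26 to 0.24.

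Among the members whose first match is a TCP factor, the pair led by TCP20 lay above 2× in both 4× pools. Cs2g25640 measured 14.8 and 14.6 RPKM in 4×, against 12.3 and 11.7 RPKM in 2× (limma adjusted p = 0.372). Cs7g11120 measured 11.6 and 10 RPKM in 4×, against 9.12 and 8.29 RPKM in 2× (limma adjusted p = 0.438). Neither passed, and another gene with this match, Cs8g16060, was listed at 0 in all libraries. Without the 9 TCP-led and bZIP-led genes, 66 members were tested and the same 2 passed, with a median log2 fold change of -0.03.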

How the data were processed

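The authors deposited RPKM per gene and library, computed from reads aligned to the sweet orange genome. Their processing notes name TopHat2 2.0.9, Bowtie2 2.0.6 and HTSeq 0.5.4p3, among others. Reads of one species aligned to another, and near-identical copies, make single values less certain. No sample column was left unused (0). Here, log2(RPKM + 0.5) of the genes averaging 1 RPKM or more was fitted with limma 3.58.1 (R 4.3.3, trend, two-sided, Benjamini-Hochberg, 0.05), without a replicate block. Whole reads were recovered within 0.001 reads for 24073 of 24073 detected genes, each as the smallest set of reads its 4 values allow. Tests were checked on simulated data. With 2 pools a group, an exact permutation test cannot go below p = 0.33, so none was used.

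Named were the called members, the tested members of the 4 groups, the 5 largest non-overlapping differences each way and the 5 highest means. The members and lists were chosen with earlier results of these data known, and the sorting by first named factor after the descriptions were seen. Python 3.11.15 and matplotlib 3.10.9 drew the figures. No sequences or coordinates were used here.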

Additional observations from a re-analysis of the deposited data

How the results depend on the processing

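Against 224 calls over all tested genes and 2 among the members, the counts were 0 and 0 with no limit on low values (2438 of 24073 genes and 16 members at an unadjusted p below 0.05), 832 and 6 with the replicate block, and 404 and 2 with voom. A pseudocount of 0.1 left 1 member, as did median-of-ratios scaling. Leaving out 1 library gave 77 to 264 calls over all genes, lowest without 2×-2, and 0 to 1 among the members. Same-numbered libraries did not deviate together (r = -0.046 across 16157 genes, which are not independent). With 2 libraries per group, this value cannot show whether the samples were paired. The description of the samples gives no pairing of 4× with 2× pools, so the main fit has no block. Scaling moved the median log2 fold change of all genes to 0.00243, against -0.03 as reported, and raised the share of calls that were higher in 4× to 38.8%, against 28.6%.

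Among the 29 named genes, none of the changes of sign was in a called gene. Cs2g03700 was at 0.00599 under scaling. When 1 library was left out, the lowest and highest values were -0.0659 and 0.0156 for Cs2g03700, -0.0480 and 0.371 for Cs5g11380, -0.0438 and 0.0688 for Cs5g30170, -0.172 and 0.212 for Cs6g01760, -0.0291 and 0.413 for Cs7g19780, -0.0847 and 0.131 for Cs8g09040, -0.229 and 0.0450 for orange1.1t01021, -0.172 and 0.0282 for orange1.1t01783, and -0.364 and 0.161 for orange1.1t03288. The cause was not tested. Precision was limited by 2 pools a group and by low reads: the tested members had 7 to 1756 reads a library.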

Other observations

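Genes described as ILR3, the bHLH105 factor of the iron cascade, do not carry the bHLH words and so stood outside the 133. They are 4 genes, chosen after their values were seen, and 0 passed the test. Cs4g12300 measured 155 and 166 RPKM in 4×, against 175 and 157 RPKM in 2×, above every bHLH-described gene in mean level. Cs2g07360 measured 34.7 and 35.3 RPKM in 4×, against 24.9 and 31.7 RPKM in 2×, without overlap (log2 fold change 0.32, limma adjusted p = 0.333).

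Among the members too weak to test, Cs3g23170, led by a LONESOME HIGHWAY-like match and picked after its values were seen, had 3 reads in the 4× libraries together, against 20 in the 2× libraries. The ratio was 0.155 (exact 95% interval 0.0295 to 0.523, counting error only).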
